A study of Nannospalax ehrenbergi and Mus musculus with 14 samples.

Results

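The miR-30 family was followed through 14 microRNA libraries from tumor-bearing blind mole rats (*Spalax*) and mice. Its members here are 8 rows, taken by name out of the 1326 microRNA names in the deposited tables. They are the 5p arms of miR-30a, miR-30b, miR-30c, miR-30d and miR-30e and the 3p arms of miR-30a, miR-30d and miR-30e. All 8 passed the filter on low values in both species. Every animal had been given 3-methylcholanthrene (3MCA), a polycyclic carcinogen, as a single injection under the skin of the left neck. In each animal the growth on the injected side (IS) was compared with muscle of the uninjected side (UIS), so both sides come from carcinogen-treated animals. The 4 *Spalax* were caught in the field, were estimated to be between 2 and over 10 years old, and received 1 mg in 500 µl. Granulomas, which are benign, were removed from 2 of them at 14 and 16 months, and fibrosarcomas from the other 2 at 18 and 30 months after the injection. The 3 C57BL/6 mice were 3 to 4 months old, received 200 µg in 200 µl, and had fibrosarcomas removed after 11, 12 and 14 weeks. Animals are named below by this time. With 2 or 3 libraries a group, the spread is that between a few animals, and treatment time differs between conditions. The column name of 1 mouse UIS library does not match the number in its label, so that library was kept in its group without a partner.

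microRNAs are cut from hairpin precursors and guide the silencing of messenger RNAs through a short seed near their 5′ end. The miR-30 family shares a single seed over several genes, and its 5p strands are usually the guides, while the 3p strands of miR-30a, miR-30d and miR-30e are made from the other arm of the same hairpins. The family is abundant in skeletal muscle, heart and kidney. Its known targets include the connective tissue growth factor gene and Snai1, a driver of the epithelial to mesenchymal transition.

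Muscle microRNAs set the background of every comparison. The 15 names of the muscle list held 35.2% to 37.3% of the reads in *Spalax* UIS and 27.7% to 29.8% in mouse UIS, against 0.0096% to 0.165% in granulomas, 0.0112% to 0.0132% in *Spalax* fibrosarcomas and 0.0101% to 3.95% in mouse fibrosarcomas. Of these 15 names, 5 were at 0 in both granulomas, 9 in both *Spalax* fibrosarcomas and 2 in all mouse fibrosarcomas. In UIS, 2 were at 0 in each *Spalax* group (miR-1b-5p and miR-1b-3p) and 1 in all mouse libraries (miR-1b-5p). miR-208b-5p, at 0 in the mouse tumors, had at most 3 reads in each mouse UIS library. Not every 0 is therefore a loss from muscle. By the shares of reads, the sides differed in tissue as well as in growth. In bulk RNA, fewer cells of a type and less RNA per cell cannot be told apart, and the part of the muscle loss in the miR-30 values was not tested. Libraries held 2034574 to 13982842 reads, with the UIS libraries deeper than the IS libraries in every case.

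To show how alike the members are, the 22 bases that start at the longest run shared by all 6 mouse hairpins are given here as DNA letters from GENCODE M21 (GRCm38). The run itself has 11 bases and holds the family seed. Capitals mark letters that differ from Mir30a, and positions are counted from 1 at the 5′ end of the stretch.
Mir30a: tgtaaacatcctcgactggaag
Mir30d: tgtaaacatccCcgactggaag
Mir30e: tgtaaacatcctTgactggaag
Mir30b: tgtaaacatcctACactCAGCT
Mir30c-1: tgtaaacatcctACactCTCag
Mir30c-2: tgtaaacatcctACactCTCag

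Mir30d differed from Mir30a by T12C and Mir30e by C13T, so the miR-30a, miR-30d and miR-30e rows are told apart by 1 or 2 bases of 22. Mir30b differed from Mir30a at 7 bases and both Mir30c genes at 5. The stretches of Mir30c-1 and Mir30c-2 were identical, and the miR-30c-5p row can hold reads of either. How reads with a mismatch were shared among these rows was not tested. These are mouse sequences, and *Spalax* hairpins were not analysed here.

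The whole hairpins of the 3 genes with both arms among the members show where the arms lie. Capitals mark the 22-base stretch of the 5p side and, on the 3p side, 22 bases from the start of the longest run these 3 hairpins share there. The exact ends of the mature strands were not taken from any source.
Mir30a: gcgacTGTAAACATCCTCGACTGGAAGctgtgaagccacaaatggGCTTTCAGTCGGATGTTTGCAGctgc
Mir30d: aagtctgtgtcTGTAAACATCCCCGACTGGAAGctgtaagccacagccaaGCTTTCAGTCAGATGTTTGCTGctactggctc
Mir30e: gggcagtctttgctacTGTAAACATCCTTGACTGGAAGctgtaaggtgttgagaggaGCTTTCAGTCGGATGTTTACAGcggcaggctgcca

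On the 3p side, the Mir30d stretch differed from that of Mir30a by G11A and A21T, and the Mir30e stretch by G19A. The 6 genes lie in 3 pairs, each pair on the same strand. Mir30a (chr1:23272269-23272339, plus strand) and Mir30c-2 (chr1:23291701-23291784) are separated by 19361 bases, and Mir30c-2 overlaps an exon of the long noncoding RNA Gm27028. Mir30e (chr4:120772606-120772697, minus strand) and Mir30c-1 (chr4:120769534-120769622) are separated by 2983 bases and lie within the gene Nfyc, which encodes a subunit of a CCAAT-binding factor, outside its annotated exons. Mir30b (chr15:68337415-68337510, minus strand) and Mir30d (chr15:68341208-68341289) are separated by 3697 bases, and Mir30d overlaps an exon of the long noncoding RNA Gm20732.

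Levels were compared between members as CPM, a library's microRNA reads rescaled to a common total, since all mature strands have nearly the same length. Whether equal reads of different strands stand for equal amounts of RNA was not tested, so the orders are orders of reads. In the UIS of granuloma-bearing *Spalax*, the order was miR-30a-5p (18031 CPM on average), miR-30d-5p (16295), miR-30c-5p (8438), miR-30e-5p (5974), miR-30b-5p (1820), miR-30e-3p (743), miR-30a-3p (584) and miR-30d-3p (47.8). The ranges of neighbors in this order did not overlap. In the UIS of fibrosarcoma-bearing *Spalax* the order was the same except that miR-30d-5p (14982 to 15414 CPM) and miR-30a-5p (15185 to 15198) overlapped.

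Mouse UIS was led by miR-30a-5p alone, at 16524 to 26219 CPM, with miR-30c-5p (5724 to 9335) and miR-30d-5p (4202 to 7152) overlapping below it. Here miR-30a-3p (1180 to 1665 CPM) stood above miR-30b-5p (498 to 864). In granulomas miR-30a-5p still had the highest mean and led in the 16-month animal, but the ranges of miR-30a-5p, miR-30e-5p and miR-30d-5p overlapped, at 4530 to 9357, 5617 to 7388 and 6373 to 6482 CPM. In *Spalax* fibrosarcomas miR-30e-5p led at 13910 to 16746 CPM, above the range of every other member. In mouse fibrosarcomas miR-30d-5p (6247 to 10757 CPM), miR-30a-5p (6103 to 7098) and miR-30e-5p (5404 to 7129) overlapped.

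**Figure D1:**
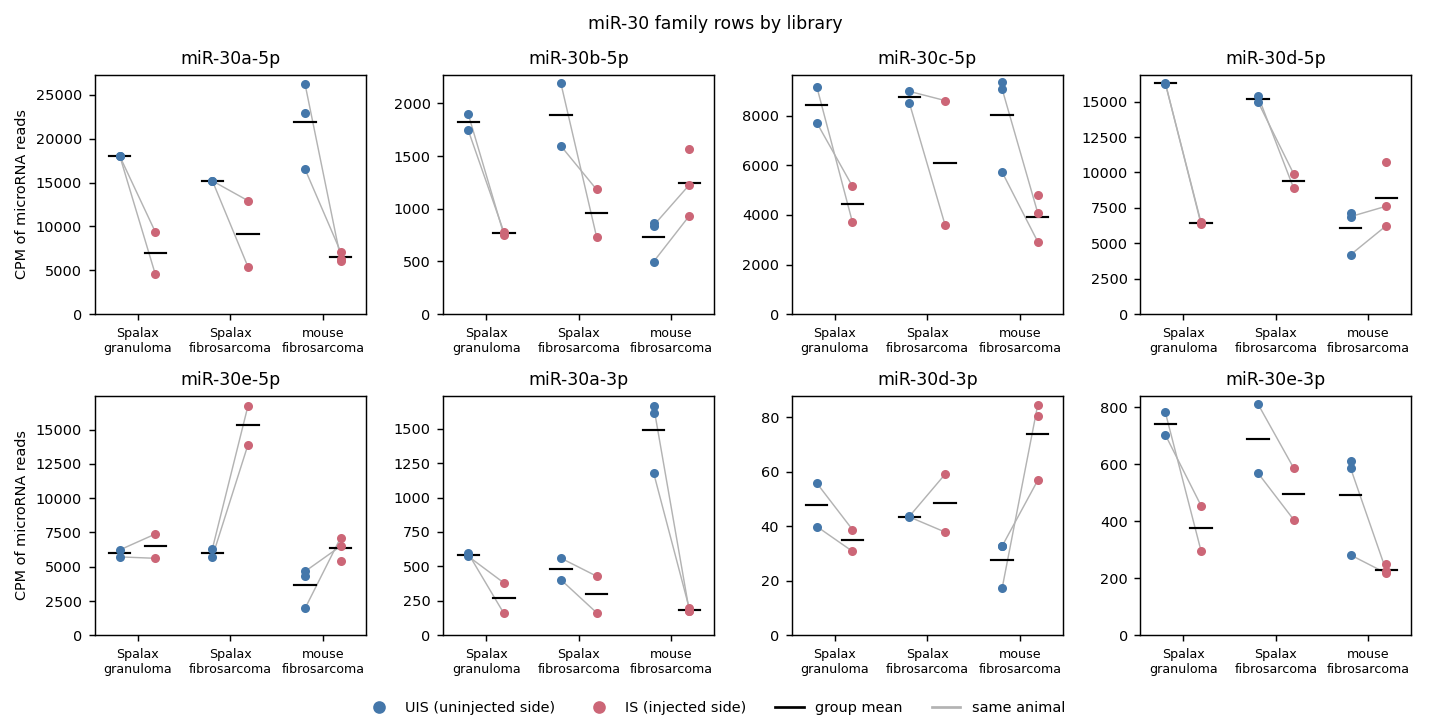
Each panel shows 1 miR-30 row, with CPM on a linear axis from 0 and the 3 conditions along the horizontal axis. Blue points are UIS and red points IS libraries, bars are group means and gray lines join sides of the same animal. miR-30a-5p is lower on the IS in every condition on this scale, whereas miR-30e-5p in *Spalax* fibrosarcomas (13910 and 16746) lies above both UIS libraries.

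Together the 8 rows took 5.31% and 5.08% of the reads in the UIS of the 14-month and 16-month animals and 2.32% and 2.83% in their granulomas. In the 30-month and 18-month *Spalax* with fibrosarcomas, the share was 4.79% and 4.86% in UIS and 4.76% and 3.60% in the tumors. In mice it was 4.997% (12 weeks), 3.04% (11 weeks) and 4.68% (the library without a partner) in UIS, and 2.62%, 2.48% and 2.91% in the tumors at 12, 11 and 14 weeks. Every IS library lay below all UIS libraries of its condition, although the 30-month animal's tumor and UIS, at 4.76% and 4.79%, were close. The share fell by 1.61 points on average over the 3 conditions (exact two-sided permutation test within conditions, 720 arrangements, p = 0.0028, adjusted p = 0.005 over 9 measures). The change was -2.62 points in granulomas, -0.65 in *Spalax* fibrosarcomas and -1.57 in mouse fibrosarcomas. The permutation p of 0.0028 is the smallest that 720 arrangements allow.

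Within the family, miR-30e-5p gained and miR-30a-5p lost ground. A member's share of the summed 5p reads does not depend on how libraries are scaled. The shares are parts of a whole, so when a row gains, the others together lose, and the changes are not independent results. miR-30e-5p made up 12.1% and 11.6% of the 5p reads in the UIS of the 14-month and 16-month animals, and 32.5% and 20.51% in their granulomas. In the 30-month and 18-month animals its share was 12.3% and 13.3% in UIS and 29.9% and 47.4% in the fibrosarcomas. In mice it was 9.77%, 6.77% and 9.64% in UIS (12 weeks, 11 weeks and the library without a partner) and 25.3%, 29.3% and 18.9% in the tumors at 12, 11 and 14 weeks. The lowest IS library of any condition stood above the highest UIS library, and in all 6 animals with both sides the share was higher on the IS. The mean gain was 18.8 points (exact permutation test, p = 0.0028, adjusted p = 0.005), namely 14.7 in granulomas, 25.8 in *Spalax* fibrosarcomas and 15.8 in mouse fibrosarcomas.

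miR-30a-5p, which led the family in muscle or shared the lead with miR-30d-5p, went the other way. It made up 34.9% and 36.4% of the 5p reads in the UIS of the 14-month and 16-month animals and 19.9% and 34.2% in their granulomas. In the 30-month and 18-month animals it went from 32.7% and 31.9% to 27.8% and 15.2%. Mouse UIS held 51.4% to 57.2% and mouse fibrosarcomas 21.3% to 29.2%. The IS and UIS ranges did not overlap in any condition, but the 16-month granuloma moved by far less than the 14-month one. The mean change was -29.5 points in mice, -8.64 in granulomas and -10.8 in *Spalax* fibrosarcomas, and over all conditions the share fell by 16.3 points (exact permutation test, p = 0.0028, adjusted p = 0.005). The difference between species was not tested. In *Spalax*, miR-30d-5p lost share as well, with changes of -6.4 points in granulomas and -9.09 in fibrosarcomas, but in mice its share changed by 15.9 points.

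The other 3 guide rows had no common direction. miR-30d-5p went from 31.6% to 32.9% of the 5p reads in *Spalax* UIS to 21.3% to 28.0% on the IS, but from 14.4% to 16.0% in mouse UIS to 25.7% to 37.6% in mouse tumors. Its mean change over the conditions was 0.15 points (exact permutation test, adjusted p = 0.96). For miR-30b-5p the mean change was 0.22 points (exact permutation test, adjusted p = 0.82), with 1.72% to 1.94% in mouse UIS and 3.83% to 5.46% in mouse tumors. miR-30c-5p had a mean change of -2.81 points (exact permutation test, adjusted p = 0.11), and its granuloma and UIS ranges overlapped.

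**Figure D2:**
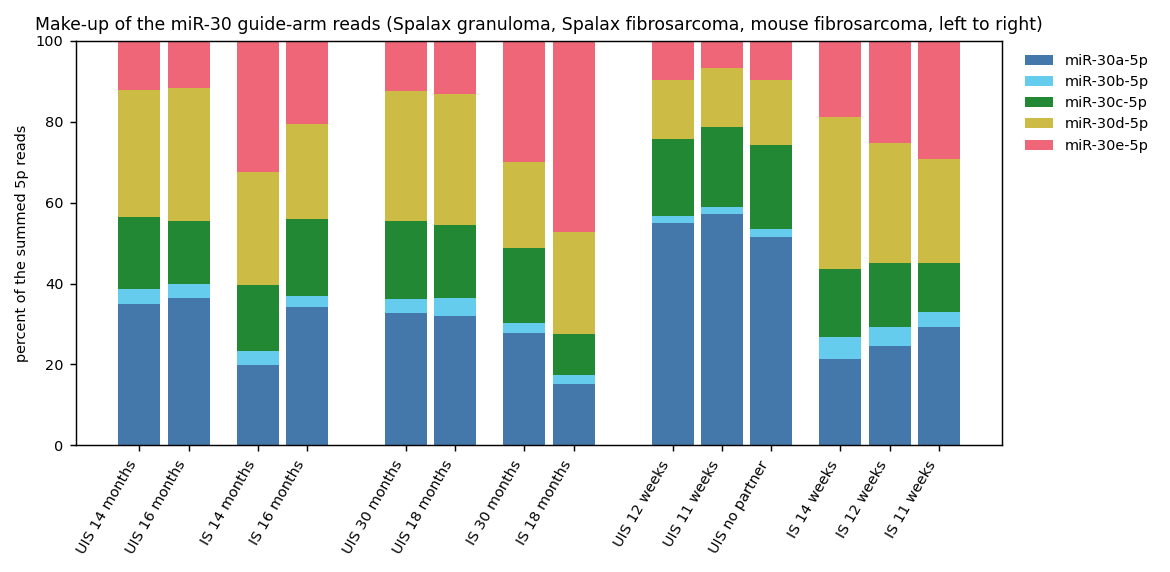
Stacked bars give each 5p row's percent of the summed 5p reads in each of the 14 libraries, from 0 to 100, labeled by side and time of removal. The miR-30e-5p segment at the top is 6.77% to 13.3% of UIS bars and 18.9% to 47.4% of IS bars, and the miR-30a-5p segment at the bottom is shorter on the IS in every condition.

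Reads of the 5p arm relative to the 3p arm, which also need no scaling between libraries, moved in opposite directions for miR-30e and miR-30d. For miR-30e there were 7.96 and 8.13 5p reads for each 3p read in the UIS of animals with granulomas and 12.3 and 24.9 in the granulomas. *Spalax* with fibrosarcomas had 7.06 and 11.1 in UIS and 23.7 and 41.2 in the tumors. Mice had 6.95 to 7.95 in UIS and 21.7 to 32.8 in the tumors. IS and UIS did not overlap in any condition, and the log2 ratio rose by 1.62 on average (exact permutation test, p = 0.0028, adjusted p = 0.005), with 1.12, 1.82 and 1.91 in granulomas, *Spalax* fibrosarcomas and mouse fibrosarcomas.

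For miR-30d, the row with the fewest 3p reads, the 5p reads for each 3p read numbered 292 to 409 in *Spalax* UIS and 211 to 244 in mouse UIS, and 167 to 235 in *Spalax* IS and 73.9 to 134 in mouse IS. The log2 ratio fell by 0.92 on average (exact permutation test, p = 0.0028, adjusted p = 0.005). The change was -0.90, -0.82 and -1.03 in granulomas, *Spalax* fibrosarcomas and mouse fibrosarcomas, again with no overlap within a condition. For miR-30a the ratios of *Spalax* with fibrosarcomas overlapped, at 27.1 to 37.7 in UIS and 30.1 to 32.8 in the tumors, while granulomas (24.6 and 28.6) lay below their UIS (30.4 and 31.4). In mice they went from between 14.0 and 15.8 to between 34.0 and 36.0. The mean log2 change for miR-30a was 0.34 (exact permutation test, adjusted p = 0.11).

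For these 5 measures with an adjusted p of 0.005 (the family share, the miR-30a-5p and miR-30e-5p shares and the arm ratios of miR-30d and miR-30e), the 6 animals with both sides all moved the same way. With the animal as replicate block, an exact sign-flip test over 6 animals gave p = 0.0312 for each, the smallest it allows, and an adjusted p of 0.0563 over the 9 measures, so none of the 5 passed 0.05 in that test.

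**Figure D3:**
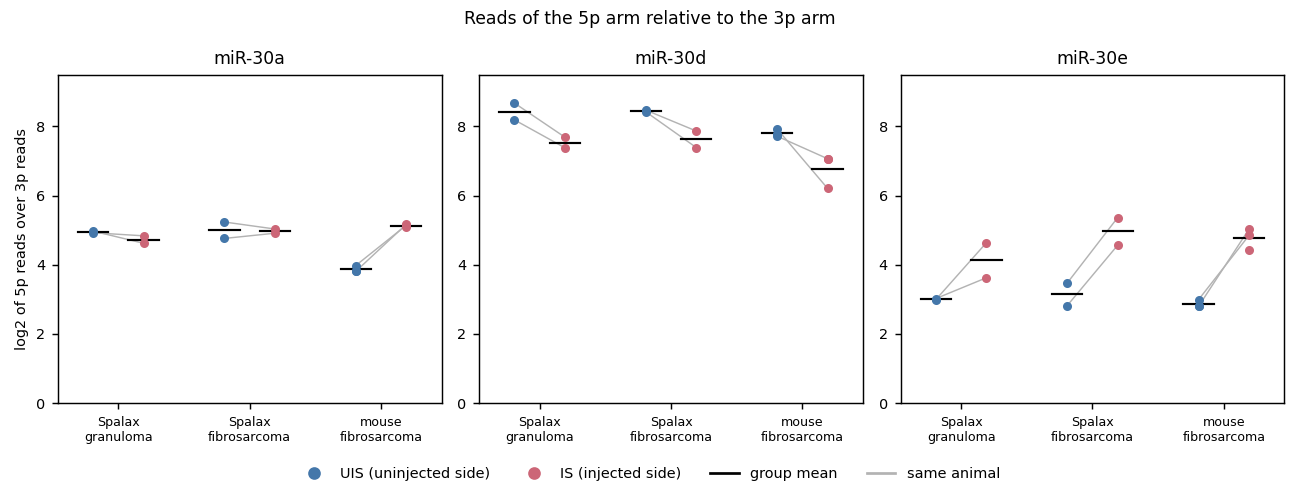
Each panel shows, for 1 hairpin, the log2 of 5p reads over 3p reads in each library, with 0.5 reads added to each arm. Blue points are UIS, red points IS, bars group means, and gray lines join sides of an animal. miR-30e is higher on the IS and miR-30d lower in every condition, whereas miR-30a is higher in the mouse IS and mixed in *Spalax*.

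To ask which members differed between the sides by more than the spread between libraries, each row's own IS and UIS values were tested against no change. Normalized counts, the deposited values, were compared by limma on log2(count + 1). These values rest on size factors that place the median microRNA near no change. Scaling to library totals raised the median over all tested microRNAs, as a log2 fold change, from 0.13 to 1.90 in granulomas, from -0.23 to 1.395 in *Spalax* fibrosarcomas and from 0.21 to 2.57 in mouse fibrosarcomas. Both scalings are therefore given, and each member is also placed against the median of all microRNAs, as a description with no test.

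In granulomas all 8 rows fell in the deposited scaling, against 22.8% of the 447 microRNAs tested that were called lower and 25.5% called higher. miR-30a-5p, for example, had normalized counts of 295622 and 283118 in UIS and 20203 and 41900 in granulomas (14 and 16 months), so that the sides were far apart although the 2 granulomas differed. It fell by 3.31 on the log2 scale (SE 0.49, n = 2 per side, limma adjusted p = 0.0018). miR-30d-5p had the tightest values, 267105 and 255908 in UIS and 28423 and 29025 in granulomas. Its log2 fold change was -3.19 (SE 0.24, limma adjusted p = 0.00021). miR-30e-5p fell least, from 101995 and 89900 to 32950 and 25150. Its log2 fold change was -1.73 (SE 0.28, limma adjusted p = 0.0026), the only guide row with a fall of less than 4-fold. The log2 fold changes of miR-30b-5p and miR-30c-5p were -3.09 and -2.79.

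The 3p rows fell as well, with log2 fold changes of -3.09 for miR-30a-3p, -2.29 for miR-30d-3p and -2.86 for miR-30e-3p, and the limma adjusted p of the 8 rows ranged from 0.00021 to 0.0051. The median of the 8 log2 fold changes was -2.97, or -3.10 relative to the median of all microRNAs. Scaled to library totals, the value relative to that median was nearly the same, -3.03, but only miR-30a-5p, miR-30b-5p and miR-30d-5p fell past the threshold (11% of all microRNAs were called lower and 56.6% higher), and miR-30e-5p turned to a log2 fold change of 0.11 (limma adjusted p = 0.74).

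In *Spalax* fibrosarcomas 7 of the 8 rows fell in the deposited scaling, where 22.1% of 447 microRNAs were called lower and 15.2% higher. miR-30e-5p was the exception. Its normalized counts were 81167 and 88672 in UIS and 60527 and 73926 in the tumors (30 and 18 months), below UIS in both animals by little. The log2 fold change was -0.34 (SE 0.28, 95% interval -1.005 to 0.32, limma adjusted p = 0.37), or -0.11 relative to the median of all microRNAs. Its own 3p arm, miR-30e-3p, went from 11504 and 7998 to 2555 and 1792 and fell by 2.16 on the log2 scale (SE 0.40, limma adjusted p = 0.0056). miR-30a-5p went from 215261 and 213489 to 56252 and 23763 and fell by 2.55 (SE 0.49, limma adjusted p = 0.0063). Both arms of miR-30e come from 1 hairpin, and in these tumors their changes lay far apart. The 5p arm also fell less than the 3p arm in granulomas (-1.73 and -2.86) and mouse fibrosarcomas (-1.49 and -3.40).

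The other log2 fold changes were -2.69 for miR-30b-5p, -2.34 for miR-30c-5p, -2.38 for miR-30d-5p, -2.53 for miR-30a-3p and -1.56 for miR-30d-3p. The fall of miR-30d-3p, the least abundant member, did not pass with the animal as replicate block (limma adjusted p = 0.055). Without the UIS library of the 30-month animal, 4 members were called instead of 7, since the rows miR-30a-3p, miR-30d-3p and miR-30e-3p dropped out. With library totals, where 9.17% of microRNAs were called lower and 43.2% higher, miR-30b-5p and miR-30d-5p fell, while miR-30e-5p rose by 1.34 on the log2 scale (SE 0.28, limma adjusted p = 0.0055), or -0.051 relative to the raised median, and miR-30d-3p turned to 0.12.

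In mouse fibrosarcomas 7 of the 8 rows fell in the deposited scaling, where 25.6% of 547 microRNAs were called lower and 32.2% higher. The miR-30a hairpin changed most. miR-30a-5p had normalized counts of 484525, 443994 and 356192 in UIS and 25827, 27254 and 21191 in the tumors (12, 11 and 14 weeks, the third UIS value being the library without a partner), with no overlap, and fell by 4.11 on the log2 scale (SE 0.26, n = 3 per side, limma adjusted p = 0.0002). miR-30a-3p went from 25110 to 31717 in UIS down to 623 to 757 in the tumors and fell by 5.37 (SE 0.28, limma adjusted p = 0.00014), a 41.4-fold change. Within each arm, the tumor values of the 3 mice lay close together.

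The log2 fold changes were -3.41 for miR-30c-5p, -3.40 for miR-30e-3p, -1.95 for miR-30d-5p, -1.61 for miR-30b-5p and -1.49 for miR-30e-5p. miR-30d-3p stood at 604, 463 and 506 in UIS and 232, 324 and 280 in the tumors, and its log2 fold change of -0.91 (SE 0.34, 95% interval -1.71 to -0.12) missed the threshold (limma adjusted p = 0.052). It passed with DESeq2 (adjusted p = 0.0072), with size factors without the muscle microRNAs (0.049), with a pseudocount of 0.1 (0.048) and without the 11-week tumor (0.036), and did not pass with the animal as replicate block (limma adjusted p = 0.27). With library totals, where 5.67% of microRNAs were called lower and 68.2% higher, miR-30a-5p, miR-30c-5p and miR-30a-3p fell and miR-30d-3p rose by 1.46 (limma adjusted p = 0.021). miR-30b-5p, miR-30d-5p and miR-30e-5p then stood at 0.77, 0.44 and 0.89, without passing the threshold. Under both scalings all 8 rows lay below the median of all microRNAs, and their own median relative to it was -2.89 and -2.86.

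**Figure D4:**
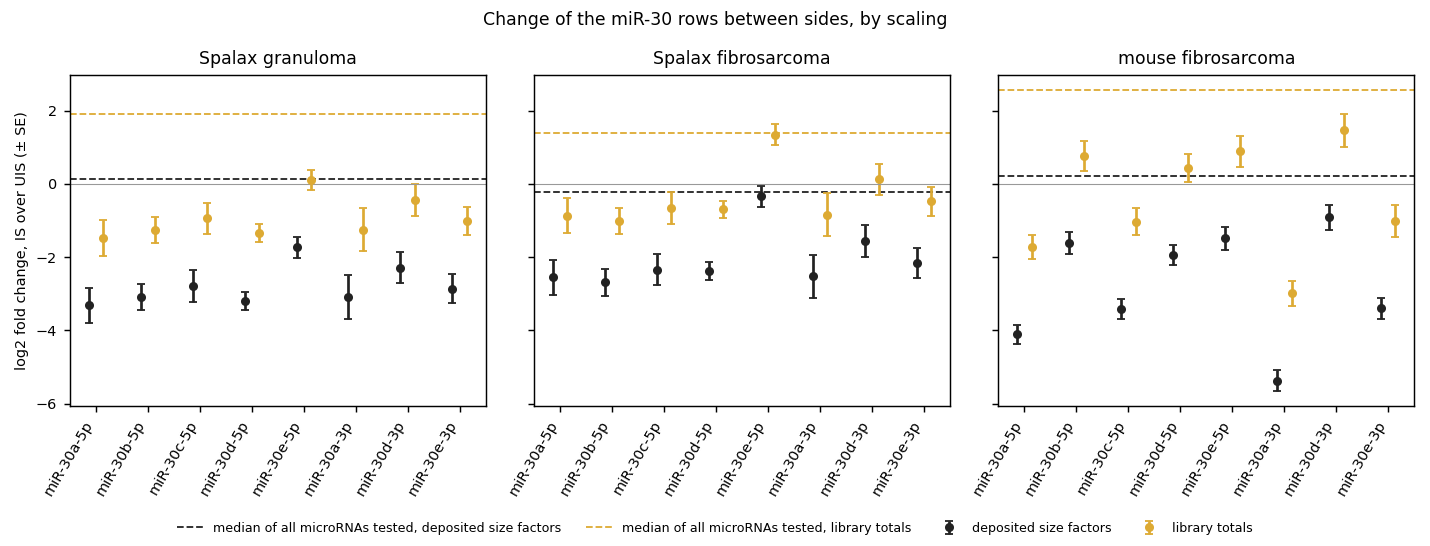
Points are log2 fold changes (IS over UIS) of the 8 rows with their standard errors, in black for the deposited size factors and in yellow for library totals. Dashed lines mark the median of all microRNAs tested in the same color. Every point lies below its own dashed line, closest for miR-30e-5p in *Spalax* fibrosarcoma at -0.11 and -0.051 relative to the line, while the yellow points of miR-30e-5p, of miR-30d-3p outside granulomas and, in mice, of miR-30b-5p and miR-30d-5p cross above 0.

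Granulomas and *Spalax* fibrosarcomas were then compared directly, to ask whether benign and malignant growths differ in the family. The change from UIS to IS differed between them in 0 of the 8 rows by limma (3.8% of 447 microRNAs were called). An unadjusted p under 0.05 was reached by 2 of the 8 rows and by 95 of all 447 microRNAs. The largest difference was that of miR-30e-5p, -1.39 on the log2 scale (SE 0.40, 95% interval -2.33 to -0.45, limma adjusted p = 0.09), and the other 7 lay between -0.80 and -0.40. Each condition's own values for miR-30e-5p are the falls of 1.73 and 0.34 given above. Between the growths themselves, 1 of the 8 rows was called (18.8% of all microRNAs). miR-30e-5p was lower in granulomas (32950 and 25150) than in *Spalax* fibrosarcomas (60527 and 73926), by 1.22 on the log2 scale (SE 0.28, limma adjusted p = 0.022). The groups did not overlap, but the adjusted p ranged from 0.033 to 0.11 when a library was left out, and in 7 of those 8 fits the call was lost.

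Between the UIS of the 2 kinds of *Spalax*, 0 of the 8 rows were called by limma (0% of all microRNAs), with log2 differences of 0.13 to 0.48. An unadjusted p under 0.05 was reached by 0 of the 8 rows and by 5 of all 447 microRNAs. The interval for miR-30e-5p was -0.49 to 0.84 and that for miR-30a-5p -0.70 to 1.57, so moderate differences were not detectable with these libraries.

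Other names of the family in the tables are no members and give context. miR-30c-2-3p, from the gene next to Mir30a, fell in all 3 comparisons in the deposited scaling, with log2 fold changes of -3.06, -3.25 and -4.77 (limma adjusted p = 0.0085, 0.0085 and 0.0002). miR-30c-1-3p, from the gene next to Mir30e, was at -1.07, -0.99 and -1.90, and passed in mice only (limma adjusted p = 0.073, 0.11 and 0.0095), where the call was lost with the animal as replicate block (limma adjusted p = 0.085). With library totals miR-30c-2-3p was called lower in mice and miR-30c-1-3p stood above 0 in all 3 comparisons without passing. miR-30b-3p had 0 or 1 reads in each *Spalax* library and 25 to 112 in each mouse library. In mice it fell by 2.00 on the log2 scale (limma adjusted p = 0.0054), a call lost with the animal as replicate block (limma adjusted p = 0.060). With library totals it stood at 0.35 without passing. The names are those of mouse microRNAs, and whether the *Spalax* strand differs in sequence was not tested. miR-30f, annotated on the strand opposite Mir30e, had 14 reads at most in any library. It was called lower in granulomas and *Spalax* fibrosarcomas (-2.73 and -3.16, limma adjusted p = 0.017 and 0.012). Those growths held at most 3 reads of it, and it passed the filter through UIS alone, so these calls carry little weight.

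By the smallest root mean square difference between log2 profiles over all 14 libraries, each centered within its table, the microRNAs closest to the summed 5p rows were miR-26a-5p (0.19), miR-328-3p (0.30), miR-22-3p (0.34), miR-193b-3p (0.39) and miR-101c (0.40). The median over 395 non-member microRNAs was 1.74. Among the members, miR-30e-3p (0.23) and miR-30c-5p (0.28) were the closest, and miR-30e-5p (0.76) and miR-30a-3p (0.87) the farthest. All 14 libraries share the contrast of muscle with growth, so these likenesses describe that contrast as well. miR-26a-5p had log2 fold changes of -3.11, -2.24 and -3.02 in granulomas, *Spalax* fibrosarcomas and mouse fibrosarcomas in the deposited scaling.

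Among 13 microRNAs linked to fibrosis and matrix, 8 fell and 4 rose in granulomas in the deposited scaling, 6 fell and 1 rose in *Spalax* fibrosarcomas, and 7 fell and 4 rose in mouse fibrosarcomas. Their median log2 fold changes were -1.67, -1.14 and -1.82, beside 0.13, -0.23 and 0.21 for all microRNAs. Of all tested microRNAs, 22.8%, 22.1% and 25.6% were called lower and 25.5%, 15.2% and 32.2% higher in the deposited scaling. With library totals the counts on the list of 13 were 4 lower and 5 higher, 3 lower and 5 higher, and 2 lower and 6 higher. The shares of all microRNAs were then 11%, 9.17% and 5.67% lower and 56.6%, 43.2% and 68.2% higher. The list includes muscle microRNAs (miR-133a-3p and miR-133b-3p). miR-29c-3p, which represses collagen genes, had log2 fold changes of -4.52, -2.92 and -4.11, all past the threshold in the deposited scaling. The other miR-29 names on the list did not fall past the threshold in every comparison. In that scaling miR-29a-3p was at -2.04, -1.14 and -0.99 (limma adjusted p = 0.017, 0.13 and 0.023). miR-29b-3p was at -2.08, -0.36 and 0.24 (limma adjusted p = 0.015, 0.62 and 0.61). miR-21a-5p, a microRNA raised in many tumors and in fibrosis, rose by 3.63, 3.63 and 3.04 on that scale, the same direction in all 3 comparisons and opposite to the miR-30 rows.

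Markers of cell types also changed between the sides, and not all in the direction of the family. Of the muscle list 11 of 11 tested names fell in both *Spalax* comparisons and 4 of 8 in mice (2 of 8 with library totals). A name could pass the filter on low values through UIS alone. Several tested muscle names were at 0 in the *Spalax* growths, so their fall was largely fixed by the filter. In the deposited scaling 22.8%, 22.1% and 25.6% of all tested microRNAs were called lower in the 3 comparisons, and 25.5%, 15.2% and 32.2% higher. The endothelial pair miR-126a-5p and miR-126a-3p fell in all 3 comparisons in the deposited scaling (0 of 2 with library totals), and their share of reads was lower on the IS in *Spalax*, at 0.395% to 0.743% against 0.784% to 0.993%, while mouse tumors (0.343% to 1.64%) and UIS (0.323% to 1.10%) overlapped. Of 5 leukocyte names 3 rose in granulomas and 3 in *Spalax* fibrosarcomas and 2 in mice, and 1, miR-150-5p, fell in granulomas. Of 5 fibroblast names 3 rose and 2 fell in granulomas, 0 rose and 2 fell in *Spalax* fibrosarcomas, and 3 rose and 2 fell in mice, all in the deposited scaling. With library totals 4 of 5 leukocyte names and 3 of 5 fibroblast names were called higher in each comparison and 0 lower. Under that scaling 56.6%, 43.2% and 68.2% of all tested microRNAs were called higher in granulomas, *Spalax* fibrosarcomas and mouse fibrosarcomas. Such counts of a few names, including the epithelial ones below, were not tested against these shares. None of the 3 red cell names passed in any comparison, and of 4 epithelial names tested in *Spalax* 1 rose in each comparison, with 0 of 3 in mice, while with library totals 3 and 2 of 4 were called higher in granulomas and *Spalax* fibrosarcomas and 2 of 3 in mice. The epithelial names took at most 0.0064% of the reads in any library. The part of these cell types in the miR-30 changes was not tested.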

How the data were processed

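Small RNA libraries were made with the TruSeq kit, and the authors trimmed adaptors and mapped reads with mirDeep. The submitters' processing notes also name TopHat 1.4.1, HTSeq, DESeq and GRCm38 for the series, and settings for microRNAs were not given in the sources used here. The deposited values are a signal, namely reads divided by a size factor. In 100% of values whole reads were recovered within 0.01 reads, at 2034574 to 13982842 reads per library. The 2 tables were scaled on different sets of libraries, so species were not tested against each other. Size factors of the *Spalax* table matched those computed from all 14 libraries of both species. Those of the mouse table matched factors from the mouse libraries alone. The *Spalax* table also holds columns of mouse libraries, and these 5 were not used.

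limma 3.58.1 (R 4.3.3) was fitted on log2(value + 1) with a spread following the mean, over microRNAs that reached a value of 10 in 2 or more *Spalax* libraries (447 names) or 3 or more mouse libraries (547 names), with the 8 *Spalax* libraries in 1 fit and a Benjamini-Hochberg threshold of 0.05. Other fits used edgeR 4.0.16 and DESeq2 1.42.0 on the recovered reads. Family share, 5p shares and arm ratios (0.5 reads added) were tested by exact two-sided permutation within conditions, in Python 3.11.15, with adjustment over these 9 measures. Scripts were tested on simulated data. Sides were paired by the animal numbers in the labels. The deviations of sides of an animal from their group means correlated at -0.107 to 0.122. Replicate libraries differed beyond sampling noise (lowest chi-square, divided by its degrees of freedom, 376), so each counted as a sample. p-values rest on the spread between libraries of these few animals. Outside the tests with a replicate block, both sides of an animal counted as separate samples.

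The members, the lists and the tests were chosen with earlier results of these data known. The named microRNAs are the 8 members, other miR-30 names, the 5 closest profiles and names from the lists, with values for up to 4 further names per list.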

Additional observations from a re-analysis of the deposited data

Results flagged for a closer look

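The following contrasts were singled out because every animal with both sides moved one way in one condition and the opposite way in another. The differences between conditions were not tested. The share of miR-30d-5p in the 5p reads changed by -6.41 points in granulomas and -9.09 in *Spalax* fibrosarcomas but by 13.2 in mouse fibrosarcomas, as means over 2 animals each. The share of miR-30b-5p changed by -0.52 points in granulomas and -1.70 in *Spalax* fibrosarcomas but by 2.55 in mouse fibrosarcomas. The log2 arm ratio of miR-30a changed by -0.22 in granulomas and by 1.26 in mouse fibrosarcomas.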

How the results depend on the processing

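Scaling to library totals changed the most: the members called became 3, 3 and 4 in granulomas, *Spalax* fibrosarcomas and mouse fibrosarcomas. It turned the log2 fold change of miR-30e-5p to 0.11, 1.34 and 0.89 in these comparisons, of miR-30d-3p to 0.12 in *Spalax* fibrosarcomas and 1.46 in mice, and of miR-30b-5p and miR-30d-5p in mice to 0.77 and 0.44. The median microRNA also stood higher under this scaling, whereas the deposited size factors place it near no change. Under the other settings no member changed direction in these comparisons. The miR-30e-5p call between granulomas and *Spalax* fibrosarcomas became 0 members with edgeR's TMM factors, without a trend of the spread and with only the libraries compared. Leaving out a library gave 0 to 1 there and 4 to 7 members called in *Spalax* fibrosarcomas. With the replicate block (paired animals), the family share changed by -1.58 points, the miR-30a-5p and miR-30e-5p shares by -16.2 and 19.8, and the log2 arm ratios of miR-30d and miR-30e by -0.97 and 1.66, none passing at 6 animals and 9 measures. The miR-30d-5p share, near 0 in the mean, became -0.78 with the block and ranged from -0.96 to 1.03 with a library left out, and its log2 ratio to the geometric mean of the 5 rows was -0.039. The miR-30c-5p share ranged from -4.20 to -1.42 and passed in 1 of these 14 tests (adjusted p = 0.046, without the 16-month granuloma). The causes were not tested. The block changed no other call of the members, apart from miR-30d-3p in *Spalax* fibrosarcomas. Depth limits miR-30d-3p most, with 77 reads in its lowest library.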
